A study of Mus musculus with 6 samples.

Results

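The nuclear genes for the proteins of the mitochondrial ribosome were followed in 6 RNA-seq libraries of mouse haematopoietic stem cells (HSCs), the marrow cells that can renew all blood lineages. The genes were taken by symbol: protein-coding mouse genes named Mrpl (large subunit) or Mrps (small subunit) followed by a digit, with pseudogenes left out. The rule found 77 of the 28786 gene IDs in the deposited table, 48 Mrpl and 29 Mrps genes. All 77 passed the filter on low counts. Mrpl33 was not analysed here.

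Both groups were HSCs from bone marrow of C57BL/6 mice of wild type genotype, 6 to 8 weeks old, gated as Lin-, Sca-1+, c-Kit+, CD48- and CD150+. The 3 TMRM-high libraries were from cells with a high signal of TMRM, a dye drawn into mitochondria by their membrane potential, and the 3 TMRM-low libraries from cells with a low signal. Each library was made from 1500 sorted cells by a low-input method with 13 cycles of cDNA amplification. Nothing in the labels states that the libraries were made from different animals. The p-values therefore measure only how far libraries differ, which may be technical.

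The mitochondrial ribosome translates the few mRNAs that the mitochondrial genome still encodes, all of them for membrane subunits of the respiratory chain and the ATP synthase. Its RNAs are made inside the organelle, but every one of its proteins is encoded in the nucleus, made in the cytosol and imported. The small subunit reads the mRNA, and the large subunit joins the amino acids and sits on the inner membrane where the products are inserted. Part of its proteins descend from bacterial ribosomal proteins, and the rest were gained by the mitochondrial ribosome and are known as mitochondria-specific. In blood stem cells, mitochondrial membrane potential is widely used as a measure of metabolic state.

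The libraries held 14270069 to 22070594 estimated counts in the TMRM-high group and 15930495 to 18431567 in the TMRM-low group. Levels are given in CPM, a gene's counts relative to its library's scaled total. Differences are log2 fold changes, TMRM-high minus TMRM-low, each with a standard error (SE). The TMRM-high libraries were far more alike than the TMRM-low ones: among genes that averaged 50 counts or more, the biological coefficient of variation was 7.22% between TMRM-high and 41.6% between TMRM-low libraries. They still differed beyond sampling noise, with chi-square values per degree of freedom of 3.98 to 6.74 between pairs of TMRM-high and 46 to 51.4 between pairs of TMRM-low libraries.

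The HSC label was checked on 10 marker genes. All were detected, but their summed level was 445 to 456 CPM in TMRM-high against 749 to 843 CPM in TMRM-low libraries, with 5 markers lower at an edgeR adjusted p below 0.05 and 0 higher, also at an unadjusted p below 0.05. The gate marker Kit averaged 263 CPM in TMRM-high against 248 CPM in TMRM-low libraries, and Ly6a, which encodes Sca-1, 30.4 CPM in TMRM-high against 168 CPM in TMRM-low libraries. Markers of other cell types were higher in the TMRM-high libraries. The 8 granulocyte and monocyte markers summed to 14800 to 15190 CPM in TMRM-high against 3619 to 3947 CPM in TMRM-low libraries, and all 8 were called higher. All 7 B lineage markers were called higher too, with 469 to 477 summed CPM in TMRM-high against 41.2 to 45.4 in TMRM-low libraries. The erythroid list had 5 of 7 called higher (164 to 181 against 33.6 to 41.0 summed CPM) and the list of G2/M genes of cycling cells 6 of 8 (1404 to 1416 against 898 to 967 summed CPM), in each case TMRM-high against TMRM-low. None of these markers had a mean of 0 in either group. These values moved together with every difference below, and their part in the results was not tested. In bulk libraries, fewer cells of a type and less RNA per cell cannot be told apart.

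The mitochondrial ribosomal protein genes differed little between the groups. Of the 77 genes, 4 were lower in TMRM-high cells, all of them for large subunit proteins: Mrpl52, Mrpl2, Mrpl27 and Mrpl38. In edgeR's quasi-likelihood test 0 were higher. The 4 lower genes are 5.19% of the 77, and 5.12% of all 13662 tested genes were called lower, so this share was close to that of all genes. They are 8.33% of the 48 Mrpl genes. Of the 29 Mrps genes 0 were lower in edgeR and 3 in DESeq2, and whether the subunits differ was not tested. Of all tested genes 5.84% were called higher. At an unadjusted p below 0.05 the test gave 3 higher and 14 lower of the 77, where 12.6% of all tested genes were higher and 13.0% lower. DESeq2 called 2 of the 77 higher and 9 lower, against 9.69% and 9.79% of all tested genes. With limma voom 1 was higher and 4 were lower, against 5.67% and 6.31% of all tested genes. The count changed when single libraries were left out, and so did the calls over all genes. It was 1, 0 and 0 lower without TMRM-high library 1, 2 and 3, where 1.57%, 1.48% and 1.42% of all tested genes were lower. It was 7, 7 and 9 lower without TMRM-low library 1, 2 and 3, where 7.06%, 7.79% and 8.49% of all tested genes were lower. Without TMRM-low library 2, 4 of the 77 genes were called higher, where 8.75% of all tested genes were.

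Mrpl52 encodes mL52, a mitochondria-specific protein of the large subunit, and lies at chr14:54426909-54429756 on the plus strand (GRCm38, GENCODE M21; ENSMUSG00000010406). It had 39.7, 33.3 and 32.1 CPM in the TMRM-high libraries, against 72.8, 63.3 and 59.5 CPM in the TMRM-low libraries. The highest TMRM-high library was well below the lowest TMRM-low one. This was the largest difference of any of the 48 Mrpl genes, a log2 fold change of -0.89 (SE 0.15; edgeR adjusted p = 0.0102). The direction held without each library, while the adjusted p was 0.0745 without TMRM-high library 2 and 0.0739 without TMRM-high library 3.

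Mrpl2 (chr17, ENSMUSG00000002767) encodes uL2m, the counterpart of a bacterial protein next to the peptidyl transferase centre, where peptide bonds form. Its levels were 86.9, 76.5 and 81.9 CPM in the TMRM-high libraries and 129, 112 and 126 CPM in the TMRM-low libraries, again with no overlap. The log2 fold change was -0.58 (SE 0.10; edgeR adjusted p = 0.0116). Mrpl27 (chr11, ENSMUSG00000024414) encodes bL27m, whose relative in Escherichia coli reaches into the same centre. It had 49.7, 48.3 and 55.6 CPM in TMRM-high against 88.2, 72.0 and 75.4 CPM in TMRM-low libraries, a log2 fold change of -0.62 (SE 0.13; edgeR adjusted p = 0.0242). Both genes were lower in each TMRM-high library than in any TMRM-low library. Without TMRM-high library 1, 2 or 3 the adjusted p was 0.0527, 0.0826 and 0.0771 for Mrpl2, and 0.132, 0.141 and 0.0858 for Mrpl27.

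Mrpl38 (chr11, ENSMUSG00000020775) encodes mL38, a mitochondria-specific protein of the central protuberance, a projection of the large subunit that touches the small one. Its levels were 39.6, 40.5 and 44.3 CPM in TMRM-high libraries, against 59.7, 58.5 and 60.6 CPM in TMRM-low libraries. Here both groups were tight and well apart. The log2 fold change was -0.52 (SE 0.13; edgeR adjusted p = 0.0376), with 0.196, 0.201 and 0.142 when TMRM-high library 1, 2 or 3 was left out and 0.0693 with no filter on low counts.

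**Figure D1:**
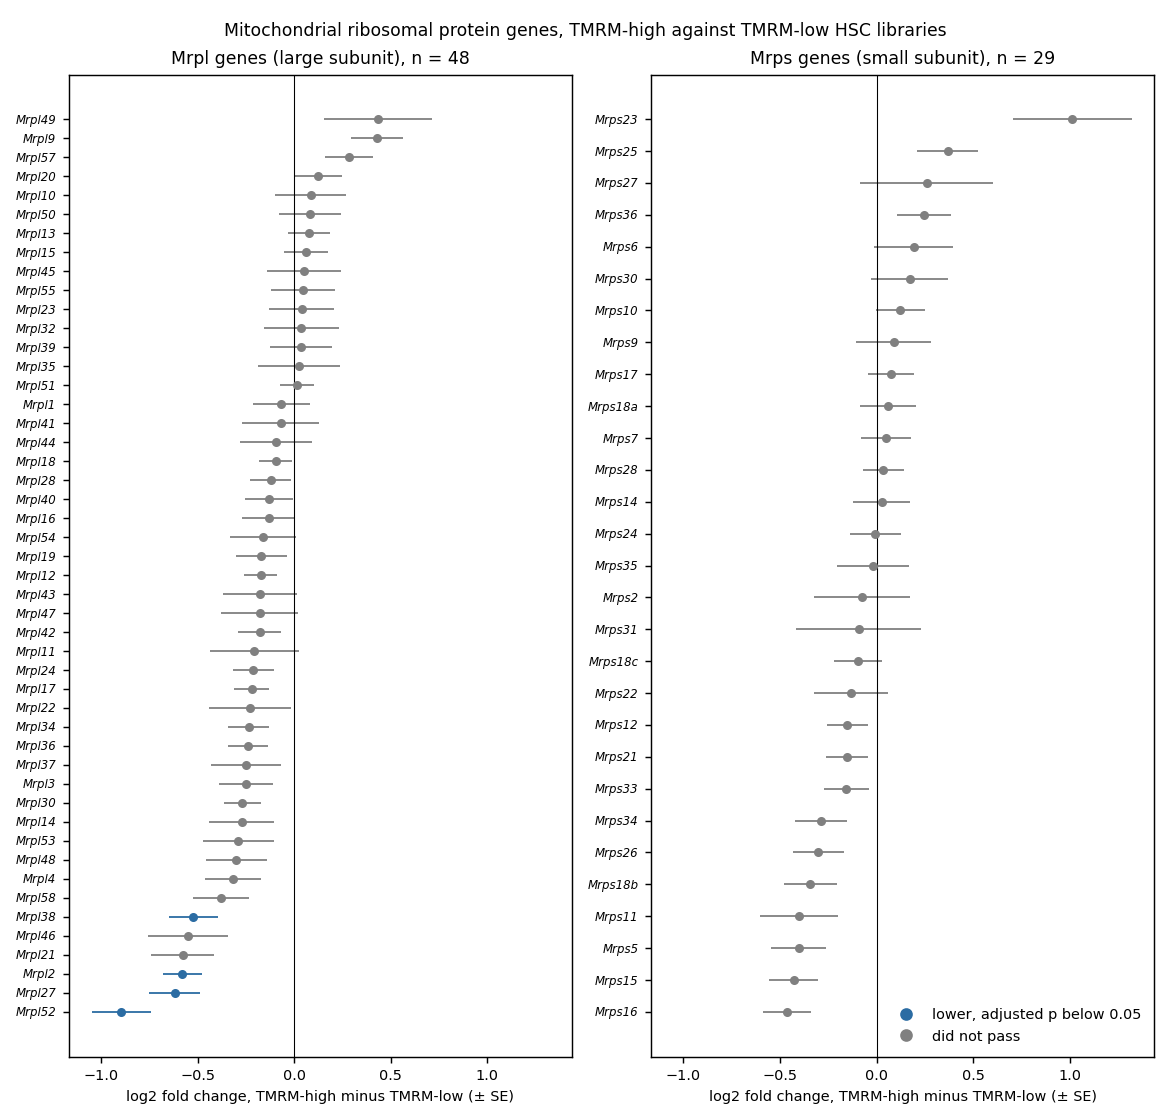
Log2 fold change of each of the 77 genes, TMRM-high minus TMRM-low, with SE, in the order of its size; the left panel holds the 48 Mrpl and the right panel the 29 Mrps genes. The 4 genes below the adjusted p of 0.05, drawn in blue, are all Mrpl genes at the lower end, and Mrps23 stands apart at the upper end.

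The promoters of the called genes are shown as the sequence that lies at their starts. Promoters of 68 of the 77 genes were in the RefSeq table (GRCm38.p6, 250 bases before to 50 after the start). They were searched on both strands for the letters of 3 motifs linked to nuclear genes of mitochondria: GCATGCGC for NRF1, CCGGAAGT for the ETS factors that include GABPA, and AAGATGGC for YY1. None of the 3 strings is part of another. The ETS motif was in 10 of the 68 promoters (14.7%, against 4.0% of all 27025 promoters), the YY1 motif in 12 (17.6% against 2.88%) and the NRF1 motif in 7 (10.3% against 2.8%). At least 1 of the 3 was in 27 promoters, 39.7% against 9.15% of all. The ETS motif was in 6 of 42 large and 4 of 26 small subunit promoters, the YY1 motif in 6 of 42 large and 6 of 26 small, and the NRF1 motif in 6 of 42 large and 1 of 26 small subunit promoters. A match is a description of letters and not a measured binding site. The windows of the called genes in the table are shown from 170 bases before to 30 after the start, on the plus strand, with an ETS match in capitals. Mrpl38 has no entry.
Mrpl52, chr14:54426739-54426938: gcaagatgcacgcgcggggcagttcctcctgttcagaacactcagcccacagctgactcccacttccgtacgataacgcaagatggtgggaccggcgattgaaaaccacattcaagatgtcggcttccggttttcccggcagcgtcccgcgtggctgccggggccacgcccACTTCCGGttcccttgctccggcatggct
Mrpl27, chr11:94653621-94653820: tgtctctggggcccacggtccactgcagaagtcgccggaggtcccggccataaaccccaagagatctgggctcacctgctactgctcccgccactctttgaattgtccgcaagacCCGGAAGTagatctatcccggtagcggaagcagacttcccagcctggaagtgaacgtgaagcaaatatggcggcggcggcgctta
Mrpl2, chr17:46646051-46646250: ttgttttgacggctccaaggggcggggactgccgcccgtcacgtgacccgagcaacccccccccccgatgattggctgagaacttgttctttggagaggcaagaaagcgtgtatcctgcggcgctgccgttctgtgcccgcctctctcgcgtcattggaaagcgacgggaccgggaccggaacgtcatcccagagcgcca
The match lies at the start itself in Mrpl52, on the minus strand, and 55 bases before it in Mrpl27. In the Mrpl2 window none of the 3 motifs was found.

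The genes just outside the threshold ran in both directions. Of those that did not pass in edgeR, the 4 with the smallest p on the lower side were Mrps16, Mrpl21, Mrps15 and Mrps5. DESeq2 called all 4, with adjusted p-values of 0.00473, 0.0111, 0.0163 and 0.0499 in that order, and limma voom called none of them. Mrps16 encodes bS16m, a bacterial-type protein of the small subunit whose human counterpart is mutated in a mitochondrial translation deficiency. It had 67.2, 55.3 and 55.5 CPM in TMRM-high against 84.8, 82.1 and 78.8 CPM in TMRM-low libraries (log2 fold change -0.46, SE 0.12; edgeR adjusted p = 0.0513). Mrpl21, for the large subunit protein bL21m, had 53.1, 42.6 and 45.2 CPM in TMRM-high against 83.4, 66.4 and 60.6 CPM in TMRM-low libraries (log2 fold change -0.58, SE 0.17; edgeR adjusted p = 0.066). In both genes the groups did not overlap, and TMRM-low library 1 was the highest. Mrps15 (uS15m) averaged 64.9 ± 1.64 CPM in TMRM-high against 87.5 ± 11.9 CPM in TMRM-low libraries (SD, n = 3 each; edgeR adjusted p = 0.0733). Mrps5 (uS5m), a gene in which a mutation in mice lowers the accuracy of mitochondrial translation, averaged 52.5 ± 1.92 CPM in TMRM-high against 69.4 ± 9.77 CPM in TMRM-low libraries (edgeR adjusted p = 0.117).

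On the higher side the 4 were Mrps23, Mrpl9, Mrps25 and Mrpl57. Mrps23, for the mitochondria-specific small subunit protein mS23, had 52.5, 47.9 and 48.4 CPM in the TMRM-high libraries, against 15.0, 36.8 and 21.9 CPM in the TMRM-low libraries. The groups did not overlap, but the TMRM-low libraries were scattered, with an SD of 45.2% of their mean. The log2 fold change of 1.01 (SE 0.31) was the only one of the 77 past 1 in size, and its edgeR adjusted p was 0.0782. It was 0.0100 without TMRM-low library 2, with a log2 fold change of 1.42, and 0.125 without TMRM-low library 3. DESeq2 and limma voom called the gene, with adjusted p-values of 0.011 and 0.0179. Mrpl9 (bL9m) had 71.4, 65.6 and 74.9 CPM in TMRM-high against 52.1, 58.6 and 46.7 CPM in TMRM-low libraries (log2 fold change 0.43, SE 0.13; edgeR adjusted p = 0.0847). DESeq2 called Mrpl9 as well, at an adjusted p of 0.0174, and limma voom did not. Mrps25, for the mitochondria-specific protein mS25, averaged 84.0 ± 0.692 CPM in TMRM-high against 65.1 ± 13.3 CPM in TMRM-low libraries (SD, n = 3 each; edgeR adjusted p = 0.192). Mrps25 shares exonic bases with Nr2c2, as given below. Mrpl57, for mL63, averaged 90.0 ± 5.25 CPM in TMRM-high against 73.9 ± 9.10 CPM in TMRM-low libraries (edgeR adjusted p = 0.196). The groups overlapped in neither gene, but in Mrpl57 the nearest libraries were at nearly the same level.

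**Figure D2:**
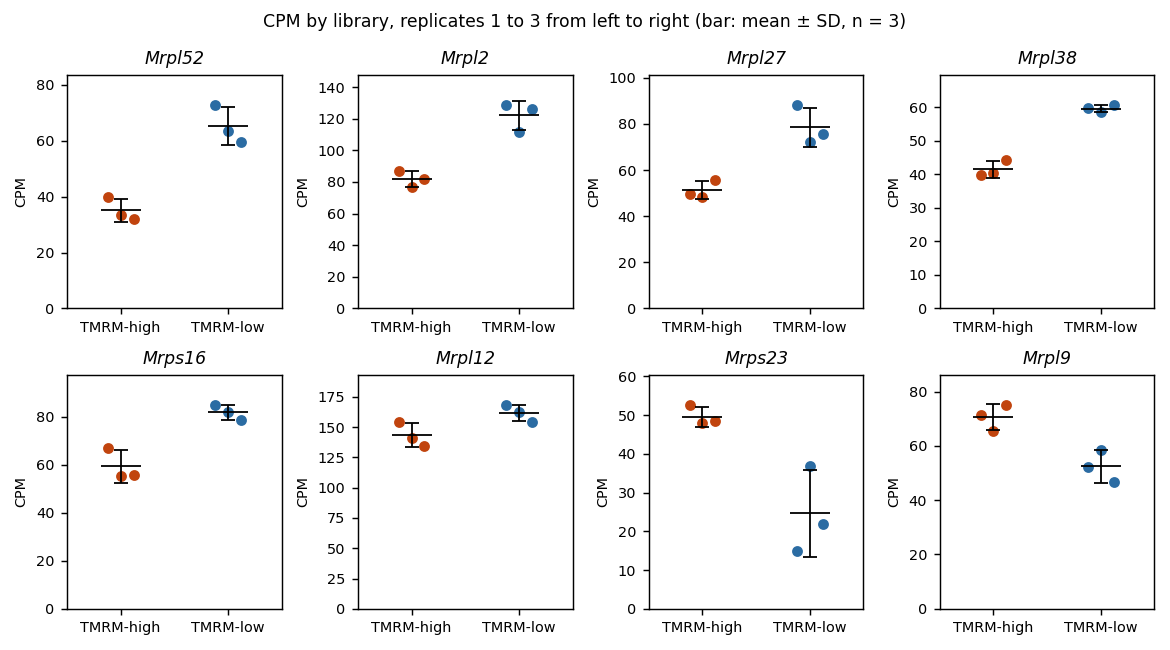
CPM in each library for the 4 called genes (upper row) and for Mrps16, Mrpl12, Mrps23 and Mrpl9 (lower row), TMRM-high left of TMRM-low; points are libraries and bars the mean ± SD of 3. The groups overlap in none of the 8, with the widest scatter in the TMRM-low libraries of Mrps23.

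Summed over all 77 genes, the level was 5177, 5042 and 5118 CPM in the TMRM-high libraries and 5601, 5500 and 5543 CPM in the TMRM-low libraries. The TMRM-high mean was 5112 ± 67.7 CPM and the TMRM-low mean 5548 ± 50.7 CPM, a ratio of 0.921. The sums did not overlap. The 48 Mrpl genes summed to 3309, 3212 and 3272 CPM in TMRM-high, against 3623, 3615 and 3654 CPM in TMRM-low libraries, a ratio of 0.899. The 29 Mrps genes summed to 1868, 1830 and 1846 CPM in TMRM-high, against 1978, 1886 and 1889 CPM in TMRM-low libraries, a ratio of 0.964. In the Mrps sums the highest TMRM-high library came close to the lowest TMRM-low one. The level of Mrpl over Mrps genes was 1.77, 1.76 and 1.77 in TMRM-high against 1.83, 1.92 and 1.93 in TMRM-low libraries. These sums describe a list and carry no test.

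The median log2 fold change was -0.17 over the Mrpl genes and -0.02 over the Mrps genes, against -0.03 over all tested genes, and the Mrps median changed to 0.00218 with total-count scaling. Of the Mrpl genes 33 had a negative and 15 a positive log2 fold change, and of the Mrps genes 16 a negative and 13 a positive one. The symbol is not the place in the ribosome for every gene. Structures of the mammalian mitochondrial ribosome put the products of Mrps30 (mL65) and Mrps18a (mL66) in the large subunit. The product of Mrps36, KGD4, belongs to the 2-oxoglutarate dehydrogenase complex and not to the ribosome. With these placed by structure the medians were -0.16 over 50 large and -0.08 over 26 small subunit genes, and the ratio of large to small sums was 2.02, 2.01 and 2.03 in TMRM-high against 2.05, 2.17 and 2.15 in TMRM-low libraries. Whether the subunits differ in their response was not tested.

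**Figure D3:**
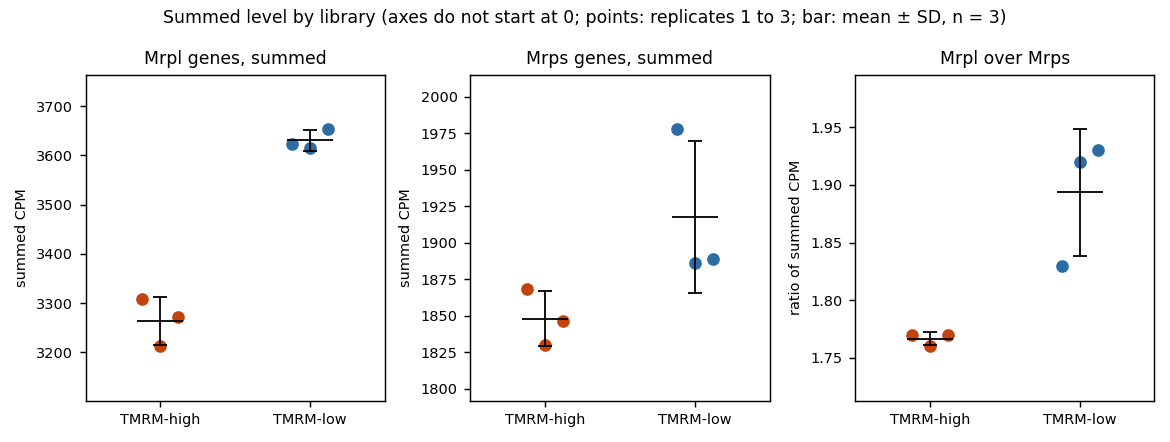
Summed CPM of the Mrpl genes (left), of the Mrps genes (middle) and their ratio (right) in each library, TMRM-high left of TMRM-low, with the mean ± SD of 3; the axes do not start at 0. All 3 measures are lower in the TMRM-high libraries, the Mrps sums by the smallest margin.

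In 23 of the 77 genes every TMRM-high library was below every TMRM-low library, which is 29.9% against 17.0% of all tested genes. In 5 genes, Mrps23, Mrps25, Mrps36, Mrpl9 and Mrpl57, every TMRM-high library was above, 6.49% against 18.4% of all tested genes. Among the 5715 tested genes with mean CPM in the range of the 77 genes, the shares were 16.9% below and 19.6% above. The 77 genes share their libraries and their scaling, so these counts are not independent of each other. Most changes were small: 70 of the 77 genes had a log2 fold change under 0.5 in size (90.9%, against 63.3% of all tested genes and 80.9% of those in the same CPM range). The highest of the 6 libraries was TMRM-low 1, 2 or 3 for 24, 17 and 25 genes, and TMRM-high 1, 2 or 3 for 4, 3 and 4 genes. The lowest was TMRM-high 1, 2 or 3 for 5, 20 and 9 genes, and TMRM-low 1, 2 or 3 for 16, 14 and 13 genes, so that the TMRM-low libraries often held both extremes.

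The spread between libraries differed between the groups. The median SD was 4.60% of the mean in TMRM-high against 13.6% in TMRM-low libraries over the 77 genes. Over all tested genes it was 8.03% in TMRM-high against 28.2% in TMRM-low libraries. The SD was over 10% of the mean for 4 genes in the TMRM-high group and for 55 genes in the TMRM-low group. Those 4 were Mrps16, Mrpl21, Mrpl52 and Mrps22. For the genes given below, a mean over the TMRM-low libraries can thus hide libraries that lie on both sides of the TMRM-high ones.

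Levels between genes were compared per length, as CPM per kb of the median protein-coding transcript. They ran from 9.29 to 197 CPM per kb with a median of 42.2, and the median level was 44.5 CPM per kb for Mrpl and 37.8 CPM per kb for Mrps genes. The highest Mrpl genes were Mrpl42 with 185 CPM per kb in TMRM-high against 210 in TMRM-low libraries, Mrpl20 with 184 and 169, and Mrpl54 with 133 and 149, in the same order of groups. They encode mL42, the bacterial-type bL20m and mL54. The highest Mrps genes were Mrps33 (183 CPM per kb in TMRM-high against 203 in TMRM-low libraries), Mrps21 (167 and 185) and Mrps18c (137 and 146). These encode mS33, bS21m and bS18m. The lowest were Mrpl47, Mrpl1 and Mrpl3 of the large subunit with 8.71, 9.54 and 15.0 CPM per kb in TMRM-high against 9.87, 9.99 and 17.8 CPM per kb in TMRM-low libraries. Of the small subunit Mrps5, Mrps25 and Mrps35 were lowest, with 11.7, 13.8 and 14.3 CPM per kb in TMRM-high against 15.5, 10.7 and 14.5 CPM per kb in TMRM-low libraries. The lengths ran from 440 to 6073 bases, with Mrps25 the longest, so the order depends on the annotated length. Before division by length, Mrps25 had 84.0 CPM in TMRM-high against 65.1 CPM in TMRM-low libraries. Coverage along transcripts was not analysed here. The order of genes was nearly the same in both groups, with a Spearman correlation of 0.971 over the 77 genes, which share libraries and transcript lengths.

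Members of known role were described whatever their values. The stalk of the large subunit recruits the translation factors. Its proteins are encoded by Mrpl12 (bL12m), which had 154, 141 and 135 CPM in TMRM-high against 168, 163 and 155 CPM in TMRM-low libraries, and Mrpl10 (uL10m), which averaged 50.3 ± 0.847 CPM in TMRM-high against 47.4 ± 10.3 CPM in TMRM-low libraries (SD, n = 3 each). Mrpl12 did not pass (log2 fold change -0.17, SE 0.08; edgeR adjusted p = 0.249), and its groups were separated by less than 1 CPM. Mrpl11 (uL11m), at the base of the stalk, averaged 47.5 ± 2.66 CPM in TMRM-high against 54.7 ± 17.8 CPM in TMRM-low libraries. Its TMRM-low libraries were at 51.7, 38.7 and 73.8 CPM, on both sides of the TMRM-high values.

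At the exit of the tunnel through which the new chain leaves, Mrpl45 (mL45) holds the ribosome to the inner membrane. It had 59.8, 58.2 and 61.0 CPM in TMRM-high against 61.6, 69.2 and 42.0 CPM in TMRM-low libraries, and the groups overlapped (log2 fold change 0.05, SE 0.19; edgeR adjusted p = 0.902). Mrpl44 (mL44), a protein with a ribonuclease III fold whose human gene is mutated in a cardiomyopathy, averaged 58.1 ± 4.21 CPM in TMRM-high against 62.0 ± 14.1 CPM in TMRM-low libraries (edgeR adjusted p = 0.806). Mrpl3 (uL3m), likewise a human cardiomyopathy gene, had 45.4, 45.0 and 51.2 CPM in TMRM-high against 51.8, 62.3 and 53.9 CPM in TMRM-low libraries. These did not overlap, but the difference did not pass (log2 fold change -0.25, SE 0.14; edgeR adjusted p = 0.319).

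Mrpl58 encodes a peptidyl-tRNA hydrolase, also known as ICT1, that frees stalled ribosomes and is also built into the large subunit. Its levels were 44.7, 43.4 and 44.6 CPM in TMRM-high against 49.3, 64.8 and 58.3 CPM in TMRM-low libraries. No TMRM-high library reached the TMRM-low ones (log2 fold change -0.38, SE 0.15; edgeR adjusted p = 0.15), and without TMRM-low library 1 the gene was called at an adjusted p of 0.038. Mrpl37 (mL37) and Mrps30 (mL65) encode related proteins that lie in the large subunit. Mrpl37 averaged 65.5 ± 5.44 CPM in TMRM-high against 77.9 ± 19.1 CPM in TMRM-low libraries, and Mrps30 64.4 ± 1.09 CPM in TMRM-high against 57.3 ± 16.4 CPM in TMRM-low libraries. In both genes the groups overlapped, and the TMRM-low libraries were the more scattered. Mrpl41 (mL41), also studied as a factor in apoptosis, averaged 46.4 ± 0.884 CPM in TMRM-high against 48.7 ± 13.0 CPM in TMRM-low libraries.

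In the small subunit, Mrps12 encodes uS12m of the decoding centre, where codon and tRNA are matched. It had 81.0, 71.4 and 82.1 CPM in TMRM-high against 90.7, 86.4 and 83.3 CPM in TMRM-low libraries, close but without overlap (log2 fold change -0.15, SE 0.11; edgeR adjusted p = 0.431). The bacterial protein S18 has 3 relatives in mammalian mitochondria, each at its own place. Mrps18b (mS40) had 59.5, 55.7 and 62.3 CPM in TMRM-high against 76.7, 64.2 and 84.2 CPM in TMRM-low libraries (log2 fold change -0.34, SE 0.14; edgeR adjusted p = 0.16). Mrps18a averaged 56.4 ± 2.99 CPM in TMRM-high against 54.1 ± 7.23 CPM in TMRM-low libraries, and Mrps18c 87.1 ± 3.56 CPM in TMRM-high against 93.0 ± 12.8 CPM in TMRM-low libraries. Of the 3 relatives, Mrps18b was the one whose groups did not overlap. It was called without TMRM-low library 2, at an adjusted p of 0.039.

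Mrps2 (uS2m), Mrps22 (mS22) and Mrps34 (mS34) are genes in which human mutations impair mitochondrial translation. Mrps34 had 46.4, 44.6 and 47.7 CPM in TMRM-high against 54.5, 52.2 and 62.6 CPM in TMRM-low libraries, with no overlap (log2 fold change -0.29, SE 0.13; edgeR adjusted p = 0.227). It shares exonic bases with Mapk8ip3, as given below. Mrps22 had 22.2, 25.5 and 20.6 CPM in TMRM-high libraries, and overlapped its TMRM-low libraries (log2 fold change -0.13, SE 0.19; edgeR adjusted p = 0.724). Mrps2 averaged 42.8 ± 3.58 CPM in TMRM-high against 45.0 ± 15.8 CPM in TMRM-low libraries. In both the groups overlapped. Mrps36, the gene outside the ribosome, had 50.3, 53.1 and 48.2 CPM in TMRM-high against 38.8, 42.3 and 46.8 CPM in TMRM-low libraries. It is 1 of the 5 genes whose TMRM-high libraries were all above (log2 fold change 0.25, SE 0.14; edgeR adjusted p = 0.325).

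Calls were also counted by the class of the structural name. By name, Mrps18a (mL66) and Mrps18b (mS40) count as mitochondria-specific, though both are relatives of the bacterial protein S18. Neither was called. Of 45 genes with a bacterial-type name 2 were called lower (4.44%), and of 31 with a mitochondria-specific name also 2 (6.45%). Both shares were near the 5.12% of all tested genes. The median log2 fold change was -0.13 in both classes. The 77 genes lie on 17 chromosomes, with the most, 11, on chromosome 11, and 0 on the mitochondrial one.

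The level of Mrpl23 depended on a copy elsewhere. Mrpl23-ps1, a processed pseudogene of Mrpl23 at chr2:74591330-74591909 on the minus strand (GRCm38, GENCODE M21), holds all 438 bases of the Mrpl23 coding sequence with 0 mismatches. Mrpl23, which encodes uL23m near the tunnel exit, lies at chr7:142532686-142540747 on the plus strand. The first 120 coding bases, from GENCODE M21, are shown for both, with the sequence of the pseudogene taken from base 18 of its transcript.
Mrpl23: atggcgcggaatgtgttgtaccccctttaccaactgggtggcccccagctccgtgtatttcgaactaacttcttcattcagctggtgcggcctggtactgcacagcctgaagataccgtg
Mrpl23-ps1: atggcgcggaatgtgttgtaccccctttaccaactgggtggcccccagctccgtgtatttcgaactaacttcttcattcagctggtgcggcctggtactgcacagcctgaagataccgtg
The 2 stretches are identical, so a read from within them cannot be placed by its sequence. Of the 31-base words of the pseudogene transcript, 94.6% occur in Mrpl23 transcripts. The deposited counts gave the pseudogene 110, 90.6 and 94.6 CPM in TMRM-high against 128, 150 and 118 CPM in TMRM-low libraries. Mrpl23 itself was given 37.2, 36.9 and 39.6 CPM in TMRM-high against 34.1, 32.7 and 43.8 CPM in TMRM-low libraries. The pseudogene thus held 72.2% of the summed level in TMRM-high against 78.2% in TMRM-low libraries. Mrpl23 alone had a log2 fold change of 0.04 (SE 0.17; edgeR adjusted p = 0.921), while the pseudogene had -0.42 (SE 0.12; edgeR adjusted p = 0.0736). With both counts added, an alternative chosen after their values were seen, the log2 fold change was -0.31 (edgeR adjusted p = 0.0759). The sign for Mrpl23 depends on how reads were divided between them, and its level is uncertain. Of 19 pseudogenes that share at least 20% of their words with one of the 77 genes, this is the only 1 with a mean of at least 1 CPM.

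**Figure D4:**
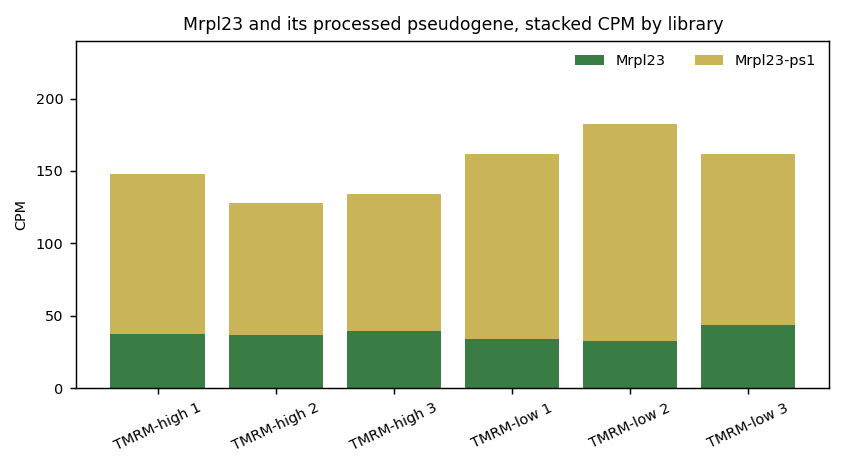
Stacked CPM of Mrpl23 (green) and Mrpl23-ps1 (yellow) in each library, the TMRM-high libraries at the left. The pseudogene holds most of each bar, and the full bars reach 128 to 148 CPM in TMRM-high and 162 to 183 CPM in TMRM-low libraries.

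The library method does not mark strand, so reads of genes with overlapping exons cannot be told apart. Exons of 32 of the 77 genes overlap another annotated gene, 28 of them on the opposite strand. Mrpl46 (mL46) and Mrps11 (uS11m) lie head to head on chromosome 7 and share 173 bases. Mrpl46 had 40.1, 35.3 and 38.7 CPM in TMRM-high against 70.0, 40.9 and 56.0 CPM in TMRM-low libraries (log2 fold change -0.55, SE 0.21; edgeR adjusted p = 0.142). Mrps11 had 31.6, 25.9 and 29.5 CPM in TMRM-high against 39.8, 45.2 and 29.8 CPM in TMRM-low libraries (log2 fold change -0.40, SE 0.20; edgeR adjusted p = 0.267). This pair and Mrpl23 were chosen after their values were seen. Among the called genes, Mrpl27 shares 75 bases with Eme1, which averaged 15.5 ± 2.54 CPM in TMRM-high against 17.2 ± 13.2 CPM in TMRM-low libraries. Mrpl53 shares 695 bases with Gm42688 on the same strand, and 100% of its 31-base words occur in Gm42688 transcripts. Mrpl53 averaged 24.2 ± 0.255 CPM in TMRM-high against 29.6 ± 3.87 CPM in TMRM-low libraries. Gm42688 averaged 7.08 ± 0.815 CPM in TMRM-high against 10.8 ± 2.05 CPM in TMRM-low libraries. Mrps34 shares 1309 bases with Mapk8ip3 on the opposite strand and 763 with Nme3 on the same strand. Mapk8ip3 averaged 48.1 ± 1.42 CPM in TMRM-high against 34.8 ± 7.76 CPM in TMRM-low libraries. Nme3 averaged 16.1 ± 2.9 CPM in TMRM-high against 16.6 ± 1.94 CPM in TMRM-low libraries. How reads were divided in these pairs was not tested. Of the 45 genes with no exonic overlap 3 were called lower (6.67%), and of the 32 with one, 1 (3.12%), against 5.12% of all tested genes.

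The other parts of mitochondrial translation were read from lists. Of 5 further proteins of the ribosome that carry no Mrp symbol, 0 passed in edgeR, and at an unadjusted p below 0.05 there was 1 lower and 0 higher. DESeq2 also called 1 lower. The gene with the smallest p was Gadd45gip1, for mL64, with 82.4, 75.2 and 78.6 CPM in TMRM-high against 102, 107 and 94.0 CPM in TMRM-low libraries (log2 fold change -0.36, SE 0.10; edgeR adjusted p = 0.0614). All 5 had negative log2 fold changes, with a median of -0.27. Of 26 genes for assembly of the ribosome and modification of its RNA 0 passed, with 1 higher and 2 lower at an unadjusted p below 0.05 and a median of -0.06, and DESeq2 called 1 in each direction. Of 14 translation factors 0 passed, with 0 higher and 2 lower at an unadjusted p below 0.05 and a median log2 fold change of 0.12, and DESeq2 called 1 lower. Tufm, the elongation factor that brings tRNAs to the ribosome, averaged 88.0 ± 2.00 CPM in TMRM-high against 78.8 ± 9.77 CPM in TMRM-low libraries (edgeR adjusted p = 0.467).

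The enzymes that charge mitochondrial tRNAs had 2 of 20 lower and 0 higher in edgeR, where 5.12% of all tested genes were lower. At an unadjusted p below 0.05, 2 were higher and 4 lower, and DESeq2 called 4 lower and 1 higher. Lars2, for leucine, took most of the counts of this list, with 9793, 9344 and 8819 CPM in TMRM-high against 11410, 10690 and 10750 CPM in TMRM-low libraries (log2 fold change -0.23, SE 0.05; edgeR adjusted p = 0.0226). The median level in this list was 24.1 CPM. Whether all reads counted for Lars2 came from its mRNA was not tested, so its level is uncertain. Gatc, a subunit of the enzyme that makes glutaminyl-tRNA, averaged 19.5 ± 1.86 CPM in TMRM-high against 36.0 ± 7.75 CPM in TMRM-low libraries (log2 fold change -0.89, SE 0.22; edgeR adjusted p = 0.0391). Neither gene's groups overlapped. Of 14 genes of mitochondrial transcription and RNA processing 2 were lower and 0 higher in edgeR, against the same 5.12% lower of all tested genes. At an unadjusted p below 0.05, 1 was higher and 2 lower, and limma voom called 1 higher. With so few genes, a share rests on 1 or 2 of them. Hsd17b10, a subunit of the RNase P that cuts out tRNAs, averaged 82.5 ± 3.47 CPM in TMRM-high against 141 ± 2.40 CPM in TMRM-low libraries (log2 fold change -0.78, SE 0.08; edgeR adjusted p = 0.00121). Slirp, whose product binds mitochondrial mRNAs, averaged 57.4 ± 1.93 CPM in TMRM-high against 86.1 ± 13.0 CPM in TMRM-low libraries (log2 fold change -0.59, SE 0.13; edgeR adjusted p = 0.0324). Without TMRM-high library 1, 2 or 3, there were 1, 0 and 0 lower calls among the tRNA enzymes and 1 each among the processing genes.

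The mRNAs that the mitochondrial ribosome translates are the mitochondrially encoded ones. Of these 13 mRNAs 4 were higher (30.8%, against 5.84% of all tested genes) and 0 lower in edgeR, with a median log2 fold change of 0.21. At an unadjusted p below 0.05 there were 8 higher and 1 lower, DESeq2 called 8 higher and 0 lower, and limma voom 7 higher and 1 lower. Summed, they took 63620, 68690 and 68440 CPM in TMRM-high against 54020, 59190 and 61560 CPM in TMRM-low libraries. These sums did not overlap, and TMRM-high library 1 came closest to the TMRM-low ones. mt-Nd3, for a subunit of complex I, had 459, 453 and 449 CPM in TMRM-high against 286, 336 and 289 CPM in TMRM-low libraries (log2 fold change 0.58, SE 0.07; edgeR adjusted p = 0.00309). The others called were mt-Nd1 (0.32), mt-Nd4 (0.35) and mt-Atp6 (0.22), with edgeR adjusted p-values of 0.0298, 0.0433 and 0.0413. mt-Atp8 had a log2 fold change of -0.42 and did not pass (edgeR adjusted p = 0.172). There was 1 higher call without TMRM-high library 1, 2 or 3, where 2.10%, 2.11% and 1.98% of all tested genes were higher. There were 2, 3 and 7 without TMRM-low library 1, 2 and 3, where 8.75%, 8.75% and 9.83% of all tested genes were higher.

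Among nuclear genes for the respiratory chain and the ATP synthase, 2 of 74 tested were higher (2.7%, against 5.84% of all tested genes) and 8 lower (10.8%, against 5.12%), with a median log2 fold change of -0.11. Ndufs7 of complex I averaged 156 ± 5.03 CPM in TMRM-high against 223 ± 15.8 CPM in TMRM-low libraries (log2 fold change -0.51; edgeR adjusted p = 0.00688). Ndufa1 of the same complex averaged 158 ± 3.67 CPM in TMRM-high against 104 ± 12.1 CPM in TMRM-low libraries (log2 fold change 0.60; edgeR adjusted p = 0.0102). For the cytosolic ribosome, 48 of 77 tested protein genes were lower (62.3%, against 5.12% of all tested genes) and 0 higher in edgeR, with a median log2 fold change of -0.26. At an unadjusted p below 0.05, 56 were lower and 1 higher, and DESeq2 called 51 lower and 1 higher. Rplp0, for a stalk protein of that ribosome, averaged 1795 ± 39.2 CPM in TMRM-high against 2731 ± 142 CPM in TMRM-low libraries (log2 fold change -0.61; edgeR adjusted p = 0.000304). The cytosolic genes had higher counts, which makes small changes easier to call, so the counts of called genes in the 2 ribosomes do not compare their changes. Without TMRM-high library 1, 2 or 3 there were 23, 13 and 13 lower calls among the cytosolic genes and 2, 0 and 0 among the nuclear respiratory genes. The difference between the lists was not tested.

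**Figure D5:**
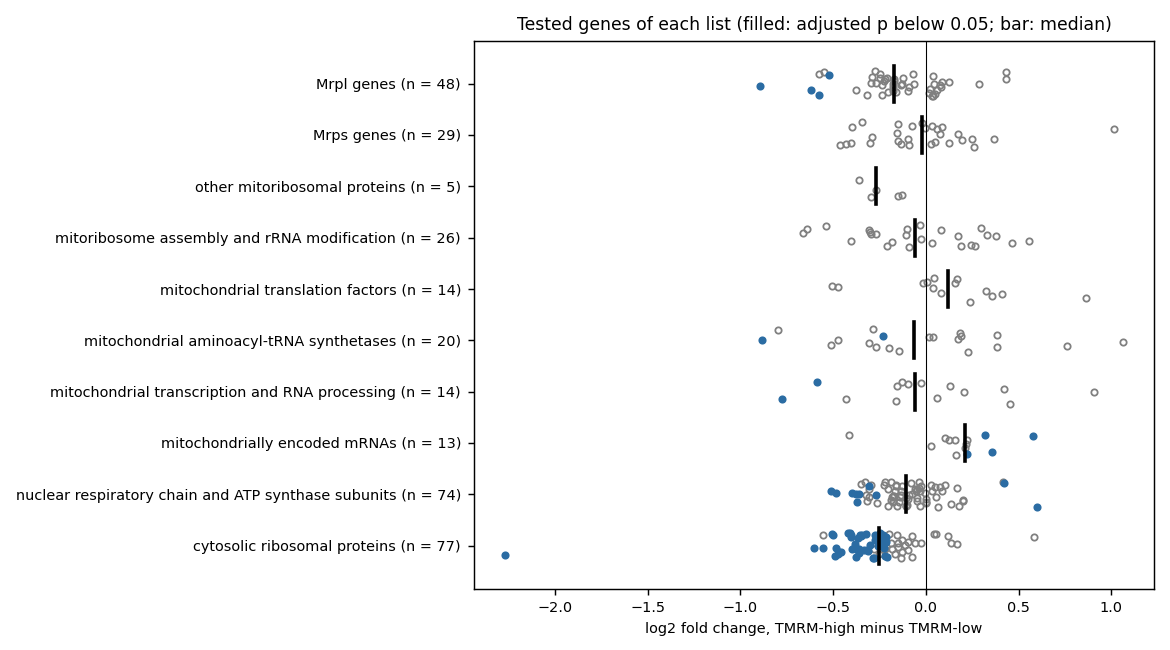
Log2 fold change, TMRM-high minus TMRM-low, of each tested gene of the Mrpl and Mrps genes and of the lists for mitochondrial translation, the respiratory chain and the cytosolic ribosome; filled points passed the adjusted p of 0.05 and bars are medians. The medians run from -0.27 for the other mitoribosomal proteins to 0.21 for the mitochondrially encoded mRNAs.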

How the data were processed

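RNA was measured in 3 TMRM-high and 3 TMRM-low libraries. The deposited values are estimated counts per Ensembl gene ID, not scaled to depth. The submitters' processing notes name Salmon (listed version 0.03.1), Trim Galore 0.5.0 and the build GRCm38. The sources used here do not give the annotation and settings the authors used for these counts. Salmon divides reads between similar transcripts, and PCR copies were not removed by molecular identifiers.

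Counts were rounded to whole numbers. Symbols and positions came from GENCODE M21 for 27797 IDs. edgeR 4.0.16 in R 4.3.3 fitted the whole table: filterByExpr with the group kept 13662 genes, library sizes were scaled by TMM, and the group was tested as the single term of a robust quasi-likelihood fit, with Benjamini-Hochberg adjustment over all genes tested and calls below 0.05. The SE was taken from the log2 fold change and its F statistic. CPM use TMM-scaled library sizes. The test was tried on simulated data. CPM per kb use the median length of a gene's basic protein-coding transcripts.

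The genes and lists were chosen with earlier results of these data known. Genes were named by a rule: called members, the 3 highest and 3 lowest of each subunit per kb, the 4 smallest p in each direction among those not called, members of known role, and up to 4 called genes a list by smallest p; not every list gene it allows is described. Gadd45gip1, Tufm, Eme1, mt-Atp8, Mrpl23, Mrpl46, Mrps11, Mrpl53, Gm42688, Nr2c2, Mapk8ip3 and Nme3 were added after their values were seen. Other settings tried were scaling by RLE, upper quartile or total counts, a low-count filter left off or raised to a mean of 50, limma 3.58.1 voom, DESeq2 1.42.0, the replicate number as a block, each library left out, the TMRM-high libraries summed, an adjusted p of 0.1, subunits by structure, and Mrpl23-ps1 added to Mrpl23.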

Additional observations from a re-analysis of the deposited data

How the results depend on the processing

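Calls among the 77 genes depended on the test and on single libraries, and so did the calls over all genes. Against 4 lower and 0 higher, there were 9 lower and 2 higher with DESeq2 and 1 higher with limma voom. With no low-count filter 1 was higher, where 3.53% of all tested genes were. At an adjusted p of 0.1, 7 were lower and 2 higher, where 8.33% of all tested genes were lower and 8.71% higher. With the replicate block 2 were lower (Mrpl52 and Mrpl2), where 3.29% of all tested genes were. Without each library in turn there were 0 to 9 lower and 0 to 4 higher. For Mrpl genes, lower calls were 2 with the block and 0 to 7 without each library. Their higher calls were 1 with DESeq2, 1 at an adjusted p of 0.1 and 0 to 2 without each library. For Mrps genes, higher calls were 1 with no filter, DESeq2, limma voom or an adjusted p of 0.1, and 0 to 2 without each library. Lower calls of Mrps genes were 1 with upper-quartile scaling or a mean count of at least 50, 3 with DESeq2, 2 at an adjusted p of 0.1 and 0 to 2 without each library. The median log2 fold change of Mrpl genes was -0.143 with limma voom, -0.16 with the TMRM-high libraries summed and -0.178 to -0.144 without each library. That of Mrps genes was -0.0833 by structure, -0.0759 to -0.00654 without each library, 0.00218 with total counts, 0.00411 with limma voom and 0.00111 with the block. The ratio of summed levels was below 1 in each setting it was computed for (RLE, upper-quartile and total-count scaling, the pseudogene's counts added, each library left out): 0.934 for all genes with total counts, and for Mrpl genes 0.892 with upper-quartile scaling, 0.911 with total counts and 0.892 to 0.905 without each library.

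In the lists, without each library in turn, lower and higher calls were 13 to 53 and 0 for cytosolic ribosomal proteins, 0 to 13 and 0 to 4 for nuclear respiratory subunits, 0 and 1 to 7 for mitochondrial mRNAs, 0 to 4 and 0 to 2 for tRNA synthetases, 1 to 2 and 0 to 1 for RNA processing, 0 to 1 and 0 to 1 for assembly, 0 and 0 to 2 for translation factors, and 0 to 2 and 0 for other mitoribosomal proteins. Over all tested genes, 1.42% to 8.49% were lower and 1.98% to 9.83% higher without each library in turn. With the TMRM-high libraries summed, that group holds 1 library, so counts of calls are not given for this setting. With DESeq2, nuclear respiratory subunits had 14 lower and 5 higher, mitochondrial mRNAs 8 higher, synthetases 4 lower and 1 higher, assembly 1 lower and 1 higher, and cytosolic genes 1 higher, translation factors 1 lower and other mitoribosomal proteins 1 lower. With limma voom, mitochondrial mRNAs had 7 higher and 1 lower, RNA processing 1 higher and cytosolic genes 1 higher. With the replicate block, mitochondrial mRNAs had 7 higher, nuclear respiratory subunits 4 lower and synthetases 1 lower. RNA processing had 1 lower and cytosolic genes 1 higher with the block. Of all tested genes, 4.26% were higher and 3.29% lower in that setting. With no filter, mitochondrial mRNAs had 6 higher. At an adjusted p of 0.1 they had 8 higher, nuclear respiratory subunits 14 lower and 4 higher, synthetases 4 lower, assembly 1 lower and 1 higher, and other mitoribosomal proteins 1 lower.

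Of 697 repeats of the test over the 41 named Mrpl and Mrps genes, 637 kept direction and side of the threshold, 27 newly passed, 18 no longer passed and 15 changed sign. None of those 15 passed. The 18 could only come from the 4 genes called in the main fit. At an adjusted p of 0.1 the fit was the same, so the sign could not change. Adding the pseudogene's counts altered only the counts of Mrpl23 among these genes. Most repeats were of genes that were not called, so the pooled count says little about the called ones. Without each library in turn the log2 fold change ran from -0.0858 to 0.18 for Mrpl10, -0.403 to 0.0712 for Mrpl11, -0.216 to 0.164 for Mrpl41, -0.269 to 0.025 for Mrpl44, -0.131 to 0.203 for Mrpl45, -0.27 to 0.239 for Mrps2, -0.0232 to 0.17 for Mrps18a, -0.186 to 0.167 for Mrps35 and -0.0415 to 0.182 for Mrpl23. Mrps35 also changed with total counts (0.00218), limma voom (0.0115) and the replicate block (0.00936), and Mrpl23 with the pseudogene's counts added (-0.306). Causes were not tested. At a median SE of 0.143 on the log2 scale, small differences in these genes were not detectable.

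Libraries with the same replicate number did not deviate together (correlations of -0.0139, 0.0165 and 0.021), so the numbers were not taken as pairs. With the block, 582 genes were higher and 449 lower over all genes, against 798 and 700 without it.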
